A study of Mus musculus with 2 samples.

Results

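The subject is the cluster of miRNA genes inside Sfmbt2, measured by small RNA sequencing in mouse heart. Members were all miRNA genes of GENCODE M21 that lie wholly inside Sfmbt2 (mm10 chromosome 2, 10370510 to 10595253, plus strand) on the strand of that gene. This rule found 119 of the 2202 miRNA genes measured, and it used position alone. The 2 libraries came from heart tissue of female B6CASTF1/J mice, an F1 cross of C57BL/6 and CAST, aged 36 days. No treatment, allele or transgene is named in the labels. The libraries form 1 group of 2 biological replicates, so the values describe a level and its spread, and no condition was compared. The labels give the 2 heart samples separate biosample records and 1 common donor code. They are called 2 hearts below, though the number of animals cannot be told from this.

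A miRNA is a short RNA, cut from a folded precursor (the hairpin), that pairs with messenger RNAs through a seed near its 5′ end and lowers the output of those messages. Sfmbt2 encodes a Polycomb group protein and is an imprinted gene, expressed from the paternal copy in extraembryonic tissue, where it is needed for the placenta. One of its introns holds a rodent cluster of miRNA hairpins of the miR-297, miR-466, miR-467 and miR-669 families, which arose by repeated duplication of a few sequences rich in alternating pyrimidines and purines.

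In these hearts a few genes carried nearly all of the cluster's reads. The highest 4, all toward its 3′ end, held 93.2% in replicate 1 and 92.4% in replicate 2. Of the 119 members, 7 were detected, that is at 2 CPM (reads per 1000000 reads at miRNA genes) or more in both libraries, against 15.2% of all 2202 miRNA genes. They were Mir669e, Mir669l, Mir467c, Mir467e, Mir467d, Mir669c and Mir669o, in the order of their positions. A further 4 members had 1 to 7 reads in sum, and 108 (90.8%) had none in either library, against 71.5% of all 2202 miRNA genes. A count of 0 allows up to 3 counts, or 1.45 CPM in replicate 1 and 1.70 CPM in replicate 2. Reads that mapped to several places were counted at no gene, and many hairpins of this cluster are near copies of each other, so a count of 0 here does not give the level of a mature miRNA.

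The libraries held 2074961 and 1766135 reads at miRNA genes, with a further 2355334 and 1985503 reads that mapped to several places. The heart markers Mir208a, Mir208b and Mir499, which lie in myosin heavy chain genes, were detected in both libraries, with sums of 6143 and 8701 CPM. Intervals below are exact (Clopper-Pearson, 95%) and, like the floors, cover counting error only, since reads made by PCR are not independent molecules.

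The table of RefSeq miRNA sequences (GRCm38.p6) matched 0 of the 119 members and 9 of 10 genes of the same families elsewhere in the genome, by symbol. Of the 8 relatives with a mature sequence, 7 differ at a single position from a stretch of a member's hairpin. Of these, 4 are shown because their best matches include a detected member. Capitals mark the seed, bases 2 to 8 from the 5′ end, and the 4 seeds differ from each other.
mmu-miR-467h: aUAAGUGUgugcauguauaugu
mmu-miR-467f: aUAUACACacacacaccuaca
mmu-miR-467g: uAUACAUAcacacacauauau
mmu-miR-669n: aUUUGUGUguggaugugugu

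The best ungapped match of miR-467h was 21 of 22 bases, in the hairpins of Mir467c and Mir467e. Its own gene, Mir467h (chromosome 9, 115381819 to 115381939, plus strand), had 0 reads in both libraries. miR-467f matched 20 of 21 bases in 12 members, among them Mir467d and all 10 Mir467a genes, and its gene had 0 reads as well. miR-467g matched 20 of 21 bases in Mir467e and Mir669l, and its gene had 0 reads too. miR-669n matched 19 of 20 bases in Mir669c alone, and its gene also had 0 reads. The seed of miR-467h stood in 1 member hairpin, that of miR-467f in 27, that of miR-467g in 78 and that of miR-669n in 10. At least 1 of the 2 best matches of miR-467h thus lacks its seed. These counts are not limited to the matched stretch, so they do not show that a detected member shares the seed there. A match to letters of a hairpin does not show that this stretch is made into a mature miRNA. All 10 relatives outside Sfmbt2 had 0 reads in both libraries, so of the 4 families every assigned read lay inside Sfmbt2.

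The cluster spans 53.0 kb, from 94.8 kb after the start of Sfmbt2. All 119 members lie in 1 intron of 2 protein-coding transcripts of Sfmbt2 (10461473 to 10523944, 62.5 kb), between exons 10 and 11 of one and exons 11 and 12 of the other, and 0 exons of Sfmbt2 overlap a member. No miRNA gene stands on the other strand inside Sfmbt2, and 0 reads were counted opposite to any member. Neighbouring members start a median of 294 nt apart. The 14 Mir467 genes recur every 2450 nt (median of the spacing of their starts), with Mir466 and Mir669 genes between them. The first member by position, Gm22072 (10465287 to 10465407), had 0 reads. The last, Mir669h (10518155 to 10518279), had 6 reads in replicate 1 and 1 in replicate 2.

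**Figure D1:**
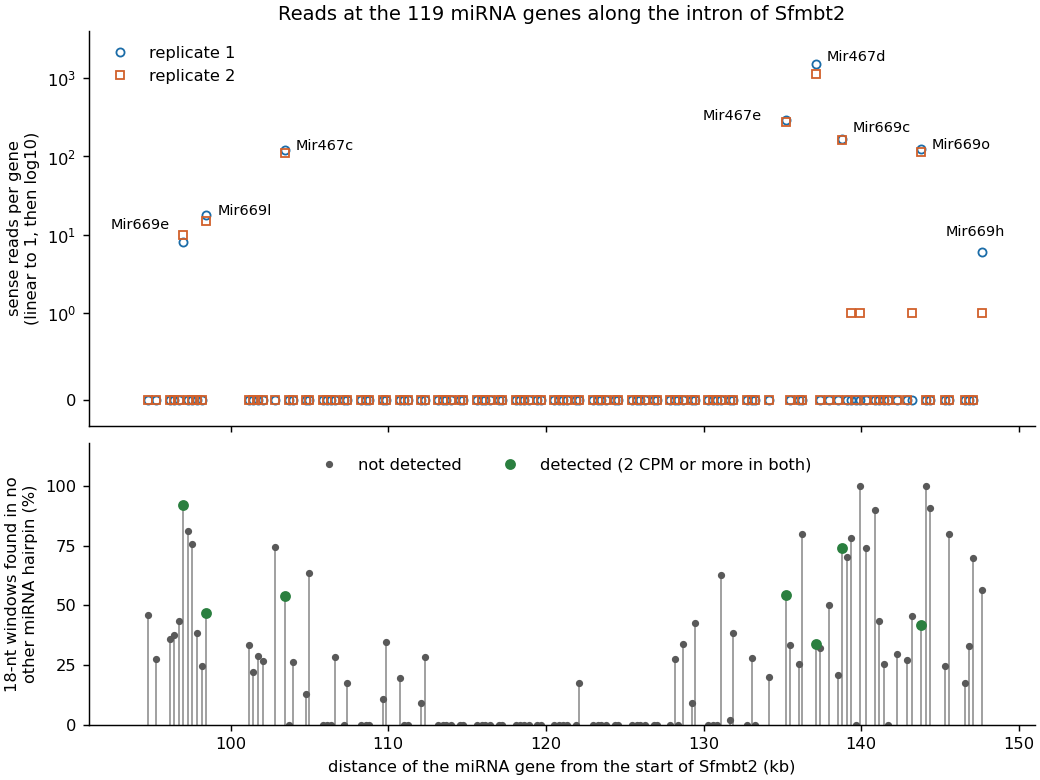
Sense reads per gene in each library (upper panel, linear to 1 and log10 above it) for each of the 119 members. The lower panel gives the percent of 18-nt windows of each hairpin found at no second place in miRNA hairpins, its own included. Both are set against the distance of the member from the start of Sfmbt2 in kb. Reads stand on both sides of the 72 members between Mir467c and Mir467e, mostly from Mir467e on. Those 72 members have 0 reads in both libraries and mostly 0% windows of their own.

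The member with the most counted reads was Mir467d (chromosome 2, 10507630 to 10507714, plus strand). It had 1519 reads in replicate 1 and 1151 in replicate 2, which are 732 CPM (interval 696 to 770) and 652 CPM (615 to 690), or 692 ± 56.8 CPM (SD, n = 2). It ranked 81 of the 2202 genes by mean CPM. A small RNA read covers a mature miRNA rather than a fragment of a longer transcript, so CPM of hairpins are set side by side without division by length.

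Mir467e (10505721 to 10505807) and Mir467c (10473931 to 10474027), the other 2 detected members of the miR-467 family, lay well below it. Mir467e had 291 and 273 reads, 140 CPM (125 to 157) in replicate 1 and 155 CPM (137 to 174) in replicate 2, with a mean of 147 ± 10.1 CPM. Mir467c had 121 and 111 reads, 58.3 CPM (48.4 to 69.7) and 62.8 CPM (51.7 to 75.7), with a mean of 60.6 ± 3.21 CPM. Both libraries gave the same order, and the intervals of these 3 genes did not overlap.

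Of the miR-669 family, 4 members were detected. Mir669c (10509296 to 10509404) had 166 and 161 reads, 80.0 CPM (68.3 to 93.1) and 91.2 CPM (77.6 to 106), with a mean of 85.6 ± 7.89 CPM. Mir669o (10514300 to 10514395) had 124 and 114 reads, 59.8 CPM (49.7 to 71.3) and 64.5 CPM (53.2 to 77.5), with a mean of 62.2 ± 3.39 CPM. The levels of Mir669o and Mir467c lay within each other's intervals in both libraries, so these neighbours in the order could not be told apart. The interval of Mir669c met those of both in replicate 1 and began above them in replicate 2.

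The remaining 2 detected members stood near the limit. Mir669l (10468971 to 10469068) had 18 and 15 reads, 8.67 CPM (5.14 to 13.7) and 8.49 CPM (4.75 to 14.0). Mir669e (10467495 to 10467613) had 8 and 10 reads, 3.86 CPM (1.66 to 7.60) and 5.66 CPM (2.72 to 10.4). Their intervals overlapped in both libraries, and that of Mir669e in replicate 1 reached below the detection limit.

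Mir669h, with 6 and 1 reads (2.89 and 0.566 CPM), passed 2 CPM in replicate 1 only. Of the 23 Mir466 members only Mir466n had a read, 1 in replicate 2, and all 5 Mir297 members had 0. Of the 48 members that carry Gm symbols, Gm25263 and Gm22239 had 1 read each in replicate 2, and they are named after their values were seen. By family, Mir467 members summed to 900 ± 43.5 CPM (3 of 14 detected) and Mir669 members to 163 ± 10.8 CPM (4 of 29 detected). These sums hold only reads that mapped to 1 place, so they do not give the level of a whole family.

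**Figure D2:**
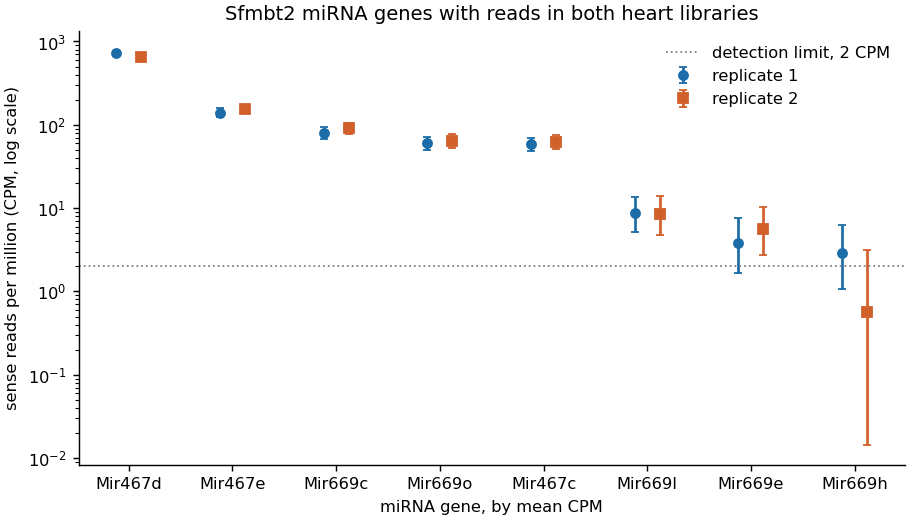
CPM (log scale) of the 8 members with reads in both libraries, with exact 95% intervals and the detection limit of 2 CPM as a dotted line. Mir467d, at 732 and 652 CPM, stands above all others, and the points of both libraries lie close together for each gene except Mir669h, at 2.89 and 0.566 CPM.

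Together the members had 2253 reads in replicate 1 and 1839 in replicate 2, or 0.109% (0.104 to 0.113) and 0.104% (0.0994 to 0.109) of reads at miRNA genes. The sum was 1086 and 1041 CPM, or 1064 ± 31.5 CPM (SD, n = 2). Mir467d held 67.4% (65.4 to 69.4) of the members' reads in replicate 1 and 62.6% (60.3 to 64.8) in replicate 2. These intervals did not overlap, so the make-up differed beyond counting error at this gene. The other shares overlapped: Mir467e held 12.9% (11.6 to 14.4) and 14.8% (13.2 to 16.6), and Mir669c 7.37% (6.32 to 8.53) and 8.75% (7.50 to 10.1). The highest 4 genes, Mir467d, Mir467e, Mir669c and Mir669o, held 93.2% and 92.4%, and with Mir467c 98.6% and 98.4%.

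**Figure D3:**
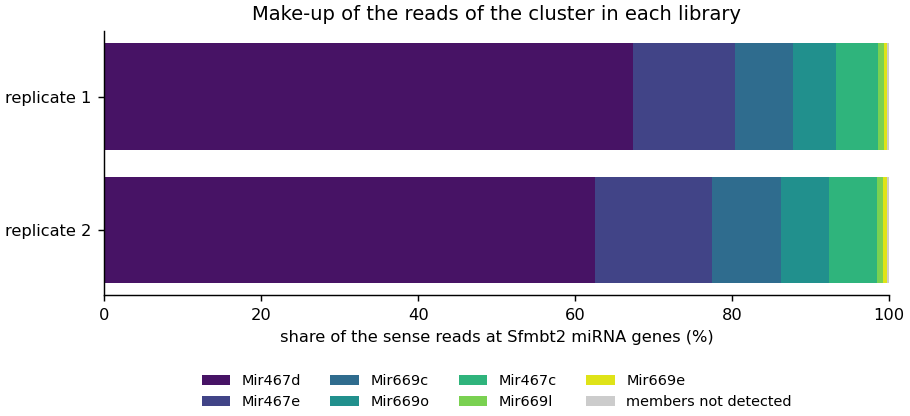
Share of the sense reads of all 119 members held by each detected member, as stacked bars in percent for each library. Mir467d makes up 67.4% in replicate 1 and 62.6% in replicate 2, and the members not detected are barely visible at the right edge.

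Of the 7 detected members, 6 had no difference between the 2 hearts past the threshold. Each of 359 genes with 10 or more counts in sum was tested by how its reads divide between the libraries (exact binomial, two-sided), given sizes scaled by edgeR's trimmed mean of M values (TMM), with Benjamini-Hochberg adjustment. The test sets one library against the other and says nothing of conditions. Over all tested genes it called 44.3%, with 24.2% higher in replicate 1 and 20.1% higher in replicate 2. All 7 detected members were tested and 1 was called. This was Mir467d, 1.26-fold higher in replicate 1, with a log2 ratio of replicate 2 over replicate 1 of -0.34 (-0.45 to -0.23) and an adjusted p of 8.57e-09 in the exact binomial test. With library size alone as scaling it was 1.12-fold. With DESeq2 size factors, which were 1 for both libraries and so left the counts unscaled for depth, it was 1.32-fold. The biological coefficient of variation over 374 genes, from edgeR's common dispersion, was 40.5%. The test for Mir467d covers counting error only, and 1.26-fold is within that variation. The 40.5% is 1 value for all 374 genes, taken from the same 2 libraries. It is not the spread of Mir467d itself, and it may be partly technical.

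The log2 ratio was -0.03 (-0.27 to 0.21) for Mir467e, -0.06 (-0.45 to 0.32) for Mir467c, 0.02 (-0.30 to 0.34) for Mir669c and -0.06 (-0.44 to 0.32) for Mir669o. The sign of each of these 4 changes with the scaling of the libraries, so no direction is given. Mir669l (-0.19, -1.29 to 0.87) and Mir669e (0.37, -1.11 to 1.93) had wide intervals, which leave room for differences of 2-fold and more. The median absolute log2 ratio was 0.06 over the 7 members and 0.42 over all tested genes. Over the 226 other tested genes between the levels of Mir669e and Mir467d it was 0.40, with 35.8% called. The members lie in 1 intron and come from 2 hearts, so they are not independent measurements, and this closeness was not tested.

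**Figure D4:**
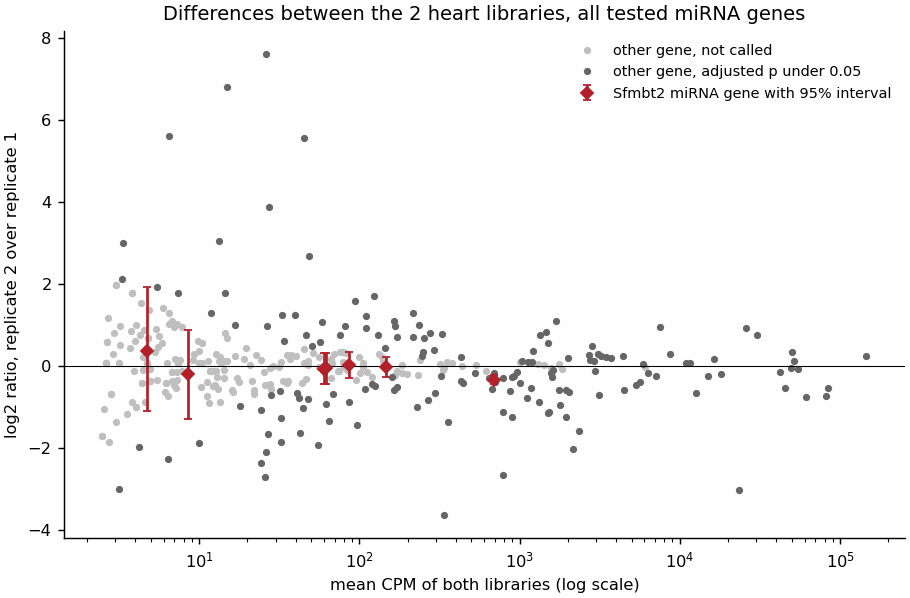
Log2 ratio of replicate 2 over replicate 1 (TMM sizes) against mean CPM of both libraries (log scale) for 359 tested genes, with the 7 tested members as diamonds with exact 95% intervals. The members lie between -0.34 and 0.37, and Mir467d, at 692 CPM, is the only one whose interval leaves out 0.

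In CPM, on library size alone, summed levels of marker genes of other cells lay further apart between the libraries than that of the cluster. These sums were not compared under TMM sizes or DESeq2 size factors. Of 14 embryonic genes, 1 was detected in both libraries. The 9 genes of the miR-290 cluster had 3 reads in replicate 1 and 336 in replicate 2, and the 5 genes of the miR-302 cluster had 22 and 20. Of all 14, 10 were at 0 in replicate 1 and 4 in replicate 2, and their sum was 12.0 and 202 CPM. The red blood cell genes Mir451a, Mir144 and Mir486 summed to 45889 and 7589 CPM, and the endothelial genes Mir126a, Mir221 and Mir222 to 99058 and 66887 CPM, in replicates 1 and 2. Mir451a (41391 and 5739 CPM) and Mir126a (97017 and 65811 CPM) held most of these sums. Mir144 (3406 and 934 CPM), Mir221 (1983 and 1015 CPM) and, by less, Mir486 (1092 and 917 CPM) were also lower in replicate 2. Mir222 was slightly higher there (58.8 and 60.6 CPM). The leukocyte genes Mir142, Mir150, Mir155 and Mir223 summed to 4121 and 5447 CPM, with Mir142 lower in replicate 2 (500 and 219 CPM) and Mir150 (971 and 1955 CPM), Mir155 (2615 and 3190 CPM) and Mir223 (34.7 and 82.7 CPM) higher. The sum of the Sfmbt2 members was 1086 and 1041 CPM beside them. In whole tissue, fewer cells of a type and less RNA per cell cannot be told apart, and which cells of the heart hold these miRNAs was not tested.

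Many of the members that gave no reads had no sequence of their own. Every 18-nt window of each hairpin was sought in all annotated miRNA hairpins on both strands, its own hairpin included. A window that recurs in its own hairpin, on either strand, was thus not counted as its own. The rest of the genome was not searched, so a window with no second place here may still have one elsewhere. The median member had 17.3% windows that occur nowhere else, against 93.6% over all 2202 genes. Of the 119 members, 54 had no such window, and 0 of these 54 had a read in either library. They made up 54 of the 108 members without reads. Another 9 members with under 20% such windows also had 0 reads. Among the 35 members with 20% to under 50%, 4 had reads and 3 were detected, and among the 21 with 50% or more, 7 had reads and 4 were detected. How many of the 2355334 and 1985503 reads that mapped to several places belong to this cluster was not tested. Outside the cluster, 292 genes had no window of their own. Of these, 25 (8.56%) had reads and 16 (5.48%) were detected, against 33.1% and 17.4% of 1791 genes with at least 1. Having no window of its own thus did not keep every such gene from being counted. The search covered both strands, so a miRNA gene annotated opposite another removes the windows they share, though reads may map to 1 place. No member has such a gene opposite it, and how many of the 25, or of the 16, do was not tested. Neither the 8.56% nor the 5.48% is therefore a measure for the 54 members.

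The copies are concentrated in the middle of the cluster. Between Mir467c and Mir467e, 72 members in a row over 30.6 kb (10474219 to 10504773) had 0 reads in both libraries, and 52 of them had no window of their own. The remaining 47 members held all 7 detected genes, and 2 of them had no window of their own. In the middle stretch lie all 10 Mir467a genes. Their hairpins are 98.6% to 100% identical in pairs over the shorter one. The 119 members have 88 distinct hairpin sequences, and 47 members share their whole hairpin with at least 1 other miRNA gene.

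Some detected genes have hairpins close to those of members without reads. The hairpin of Mir467d, with 1519 and 1151 reads, was 95.9% identical to that of Mir467a-1, with 0 reads, over the shorter hairpin. In Mir467d, 33.8% of windows were its own. Of windows that lie wholly on the 5′ side of the hairpin's midpoint 76.0% were its own, and of those wholly on the 3′ side 16.0%. In Mir467a-1 it was 0% on both sides. A mature miRNA comes from either side, and the counts do not tell the sides apart. Mir467e and Mir467c were 94.3% identical to each other, with 54.3% and 53.8% windows of their own in the whole hairpin. Mir669o was 95.4% identical to Mir669a-9, which had 0 reads, and had 41.8% windows of its own. Mir669l was 93.0% identical to its nearest member, Mir669d-2, and had 46.9% windows of its own. Mir669c and Mir669e, with 73.9% and 92.2%, stood farther from any other member, the nearest being 85.6% and 85.7% identical.

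Sequence of its own did not go with reads in each case. Nor did it outside the cluster, where 33.1% of the 1791 genes with at least 1 window of their own had reads. Mir466g had 100% of its windows to itself and Mir466h 90.6%, and both had 0 reads in both libraries, with positions next to Mir669o. Mir466l (79.8%), Mir669i (70.0%) and Mir669b (81.2%) also had 0 reads, and these 5 genes were chosen after their values were seen. In the middle stretch, Gm26491 (63.5%) and Gm23988 (62.9%), likewise chosen after their values were seen, had 0 reads. For these genes the floors given above limit only the reads that map to 1 place.

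The median base composition of the hairpins lay close together in detected and other members, which was not tested. The median GC content was 39.4% in the 7 detected members (34.7% to 42.9%) and 37.3% in the other 112 (29.0% to 43.4%), against 50.8% over all miRNA genes. TG, GT, CA and AC made up a median of 48.8% of dinucleotides in detected members (45.8% to 58.9%) and 50% in the others (32.5% to 66.7%), against 27.0% over all miRNA genes. The ranges of the detected members lie inside those of the others.

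A second imprinted cluster gives a measure of the same libraries where hairpins are mostly single copies. Of 58 plus-strand miRNA genes of the Dlk1-Dio3 locus on chromosome 12, from Mir770 to Mir3072, 39 were detected and 44 had all of their windows to themselves. They summed to 4519 and 4625 CPM, or 4572 ± 75.1 CPM (SD, n = 2), against 1064 ± 31.5 CPM for the Sfmbt2 members. Of its 40 tested genes, 8 were called different between the libraries, against 1 of 7 in Sfmbt2 and 44.3% of all tested genes. The 2 clusters were not tested against each other.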

How the data were processed

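Raw counts of reads per GENCODE M21 miRNA gene on mm10 were deposited by the authors, per the deposited notes. No source used here names the aligner or counter. Each table has 2202 gene rows and 4 rows that name no gene (unmapped, in several places, outside genes, ambiguous), which held 63.0% and 64.6% of all reads and stayed out of library sizes. The strand of the columns was read from the values, and the sense column was used. Reads mapping to several places are in no gene's count, so copies can be undercounted.

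CPM is per 1000000 sense reads over gene rows. Sizes for ratios were scaled by TMM (edgeR 4.0.16) or DESeq2 1.42.0 size factors, with a prior count of 0.5. The DESeq2 factors were 1 for both libraries, so that setting compares counts unscaled for depth. Tests used scipy 1.17.1 and were tested on simulated counts that held counting error only. Those counts had no spread between hearts, so they do not show how the test behaves with such spread. Hairpins and coordinates came from GENCODE M21, mature sequences of relatives from RefSeq, and identity from Biopython 1.88 (global alignment, free ends). Mature arms of members were not used, so windows of 18 nt stand in for the planned arm search. A chi-square of 150158 (303 degrees of freedom, 304 genes) set the 2 libraries apart. The labels do not say more of how the hearts were taken, so the spread may be partly technical. An age label in months was set aside for the age field in days.

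Named genes were the detected members, members with 10 or more counts, the highest of each family and the first and last by position. Members and lists were chosen with earlier results of these data known.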

Additional observations from a re-analysis of the deposited data

How the results depend on the processing

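The number of detected members lay between 5 (10 CPM) and 8 (replicate 1 alone), and 1 member, Mir467d, was called under every scaling, count minimum and thinning tried, with adjusted p-values of the exact binomial test from 5.14e-12 to 0.00745. The summed level of 1064 CPM, a mean over both libraries, became 1474 CPM with counts without regard to strand. There, 601257 and 470280 reads stand in the ambiguous row and not in gene rows. With library size over all reads it became 385. Members by symbol, on either strand, TMM sizes and DESeq2 size factors left this mean within 1 SD. A mean can stay while the libraries move apart, so this does not show how close they are under those sizes. The SD of 31.5 CPM holds for library size alone. Without one replicate the summed level lay between 1041 and 1086 CPM. With library size alone, the log2 ratio turned to 0.11 for Mir467c, 0.14 for Mir467e and 0.11 for Mir669o. With DESeq2 size factors, 1 for both libraries and so without scaling for depth, it turned to -0.044 for Mir669c. Windows of 22 nt, added after seeing the data, gave the same 54 members without a window of their own by number, with 0 detected. The search for mature arms and for arms in the genome was not run, since no arm of a member and no genome was used here. No paired analysis was possible because there is 1 group. At these depths 1 read is 0.482 and 0.566 CPM, so levels under about 2 CPM cannot be ranked.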
